A study of Mus musculus with 18 samples.

Results

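The acute phase response genes of the liver were followed in 18 liver RNA libraries. The 10 genes were chosen by name from the 32285 genes of the count table: Saa1, Saa2, Saa3, Orm1, Orm2, Hp, Lcn2, Apcs, Itih4 and Stat3. Each had counts in every library, and all 10 passed the filter on low counts that left 12847 genes for testing.

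The libraries came from 3 groups of 6 mice, all labelled wild-type and B6D2F1. Space pups came from cultured spermatogonial stem cells, called germline stem (GS) cells and labelled DBA/2, that had spent 6 months frozen aboard the International Space Station, and Ground pups from GS cells stored frozen on Earth for as long. By the methods the GS cells came from C57BL/6 mice with an EGFP transgene that had been crossed into DBA/2, and no such transgene is stated for the BDF1 controls. Thawed GS cells had been transplanted into the testes of infertile W mice, which carry Kit mutations, and these recipients were mated with C57BL/6 females. The F1 pups were killed at 10 weeks, whereas for the BDF1 controls, wild-type mice of the same cross, no age is given. Only some recipients sired pups, and nothing ties a library to a recipient or a litter, so libraries may share a sire and p-values measure the spread between these libraries.

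When tissue is injured or infected, cytokines such as IL-6 and IL-1 reach the liver, and hepatocytes change what they secrete. IL-6 acts through its receptor and gp130 on the transcription factor STAT3, and IL-1 acts through NF-kB and C/EBP factors, which together switch on the genes of positive acute phase proteins. Serum amyloid A is known for the widest swings in the mouse, while haptoglobin and orosomucoid are abundant at rest and move less.

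Total counts per library lay between 15407450 and 20562351. Values are counts per 1e6 (CPM) of the library size after TMM scaling, and the limit that a count of 0 allows, 3 counts, was 0.134 to 0.236 CPM. Xist, transcribed from the inactive X chromosome, ranged from 12218 to 21557 counts in 9 libraries and did not exceed 187 in the other 9, and summed counts of 4 Y-linked genes split the same libraries the other way. Replicates 1 to 3 of every group were Xist-low and replicates 4 to 6 were Xist-high. The labels give no sex, the study states that males and females were used, and the Xist class is treated here as a feature of the libraries and not as a group of the study. All 9 hepatocyte markers had counts in every library. In bulk liver RNA, fewer cells of a type and less RNA per cell cannot be told apart.

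Saa1 (chr7:46740497-46742980, minus strand, GRCm38) and Saa2 (chr7:46751790-46754313, plus strand) encode the serum amyloid A proteins that the liver sends into blood, and Saa3 (chr7:46711998-46715700, minus strand) encodes a form also made by other tissues. Orm1 and Orm2, the orosomucoid or alpha-1-acid glycoprotein genes, lie on chromosome 4 with starts at 63344560 and 63362449. Upstream sequence is shown for 4 members, whose highest library was Ground replicate 1 for Saa1 and Saa2, BDF1 replicate 3 for Orm2 and Ground replicate 5 for Itih4. The sequences are from RefSeq (GRCm38.p6), read 5′ to 3′ on the strand of the gene. Bases inside the gene as GENCODE annotates it were left out, so 207 bases are shown for Saa2 and 250 for the others. Capitals mark a match to TTGCNNAA, a C/EBP-type motif, in Saa1, Saa2 and Orm2, and to TTCNNNGAA, a STAT3-type motif, in Itih4.
Saa1 (chr7:46742981-46743230): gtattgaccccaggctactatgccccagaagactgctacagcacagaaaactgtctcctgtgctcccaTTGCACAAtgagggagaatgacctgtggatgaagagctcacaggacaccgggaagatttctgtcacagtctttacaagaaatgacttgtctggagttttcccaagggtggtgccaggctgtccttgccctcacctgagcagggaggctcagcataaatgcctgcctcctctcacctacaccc
Saa2 (chr7:46751583-46751789): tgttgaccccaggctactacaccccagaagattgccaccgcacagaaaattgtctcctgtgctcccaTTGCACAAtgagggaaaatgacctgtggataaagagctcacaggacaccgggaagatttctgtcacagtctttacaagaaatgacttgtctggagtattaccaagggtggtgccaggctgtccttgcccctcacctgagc
Orm2 (chr4:63362199-63362448): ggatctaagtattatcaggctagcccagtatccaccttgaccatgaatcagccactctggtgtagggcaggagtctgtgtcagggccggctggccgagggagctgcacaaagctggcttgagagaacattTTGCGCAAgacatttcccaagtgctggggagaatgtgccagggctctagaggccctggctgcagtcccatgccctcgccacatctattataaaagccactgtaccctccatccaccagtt
Itih4 (chr14:30886226-30886475): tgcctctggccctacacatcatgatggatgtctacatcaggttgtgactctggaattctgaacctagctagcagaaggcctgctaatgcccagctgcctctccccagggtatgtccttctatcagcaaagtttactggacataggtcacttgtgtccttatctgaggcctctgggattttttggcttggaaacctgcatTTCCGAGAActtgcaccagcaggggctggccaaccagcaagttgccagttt

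In the 250 bases before the start, searched on both strands, TTGCNNAA was present in 5 of the 8 members with a RefSeq promoter: Saa1, Saa2, Saa3, Orm2 and Lcn2. Among all 32851 promoters, 9.56% held it. TTCNNNGAA was present upstream of Apcs and Itih4, against 7.02% of all promoters. An NF-kB-type motif, GGG and CC with any 5 bases between, was present upstream of Saa1, Saa2, Lcn2 and Itih4, against 45.8% of all promoters. Stat3 had none of the 3 motifs in this window, and Hp and Orm1 had no entry. The search covered the whole RefSeq window, which for Lcn2 lies inside the gene as GENCODE annotates it, so both of its matches do too. These matches describe letters in the sequence, not bound sites.

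Per kilobase of the principal transcript, the most abundant member was Hp, the haptoglobin gene, whose product binds free haemoglobin, with a median of 2052 CPM per kb over the 18 libraries. Orm1 followed at 893 and Itih4, an inter-alpha-trypsin inhibitor heavy chain, at 620.0 CPM per kb. Apcs, the serum amyloid P component, stood at 261.9, Saa1 at 66.6, Stat3 at 24.7 and Saa2 at 23.8 CPM per kb. Orm2 at 15.9, Lcn2 at 8.58 and Saa3 at 7.95 CPM per kb were the lowest.

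The members also differed in how much they varied. Saa1 spanned 189.7-fold between its lowest and highest library, Saa2 169.9-fold and Lcn2, the neutrophil gelatinase-associated lipocalin that withholds iron from bacteria, 61.3-fold. Orm2 spanned 15.9-fold, Itih4 14.3-fold and Saa3 7.72-fold. Hp, Apcs, Orm1 and Stat3, the transcription factor of the IL-6 pathway, stayed within 5.38-fold, 5.20-fold, 2.86-fold and 2.79-fold. The shallowest value of all, Lcn2 in Space replicate 3, rested on 21 counts, 1.12 CPM with a 95% exact Poisson interval from 0.694 to 1.71, so counting error is small beside these spans.

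The first question was which libraries shared a raised acute phase. A member was called raised in a library where its CPM was over 2 times its median of the 18 libraries, and lowered where it was under that median divided by 2. At least 5 of the 10 members were raised in 4 libraries: 6 in Space replicate 4, and 5 each in Ground replicate 1 and BDF1 replicates 2 and 3. The share of all tested genes raised in these libraries was 6.01%, 2.2%, 1.07% and 1.21%, respectively. When CPM rested on total counts, without TMM factors, 3 libraries reached 5 members, Ground replicate 1 and BDF1 replicates 2 and 3, while Space replicate 4 had 4 and Ground replicates 5 and 6 had 1 each. No share of all genes is given for that scaling. None of the 3 groups had 5 raised members in all 6 libraries under either scaling.

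The raised members were not the same ones throughout. Ground replicate 1, BDF1 replicate 2 and BDF1 replicate 3, all Xist-low, had the identical set of Saa1, Saa2, Orm2, Hp and Lcn2. BDF1 replicate 1 shared the first pair, Saa1 and Saa2 (1.25% of genes). Space replicate 4, which is Xist-high, had Saa2, Saa3, Orm2, Lcn2, Apcs and Itih4 raised instead. Ground replicate 5 had 4 members raised (Saa3, Orm2, Lcn2 and Itih4) beside 5.52% of all genes, and Ground replicate 6 had 3 (Lcn2, Apcs and Itih4) beside 4.27%. In Space replicate 5 Lcn2 and Apcs were raised (3.55% of genes), and in Space replicate 6 only Lcn2 (3.21%). The other 9 libraries, replicates 1 to 3 of Space, 2 to 4 of Ground and 4 to 6 of BDF1, had no raised member. There 1.87%, 1.51% and 2.15% of genes were raised in Space, 2.08%, 2.11% and 2.89% in Ground and 2.02%, 2.93% and 2.35% in BDF1, in order of replicate number.

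**Figure D1:**
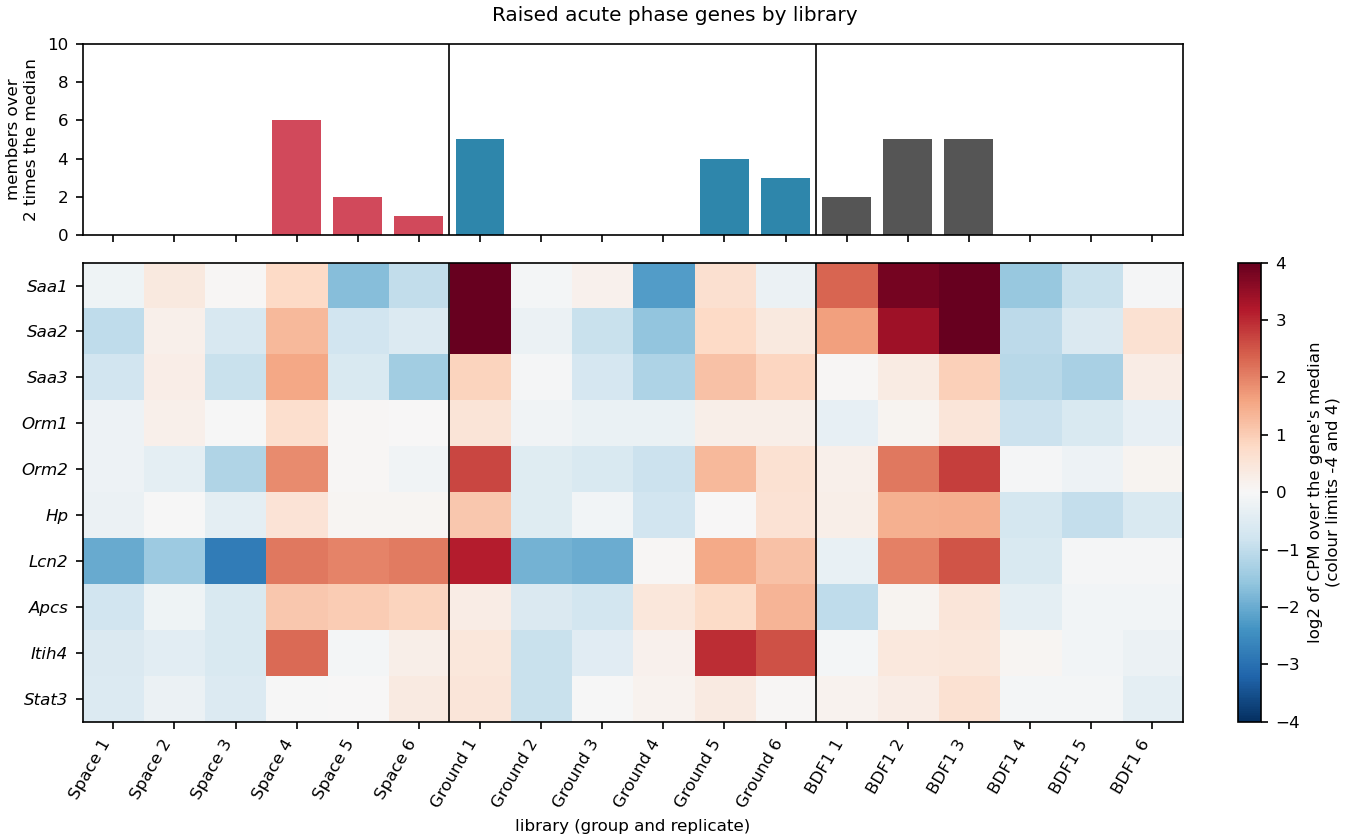
The upper panel gives for each library the number of the 10 members over 2 times their median, and the lower panel the log2 ratio of each member to its median over 18 libraries (red above, blue below, colours limited at -4 and 4). Saa1 and Saa2 stand out in Ground replicate 1 and BDF1 replicates 1 to 3, while Itih4 stands out in Space replicate 4 and Ground replicates 5 and 6.

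Saa1 had the widest span from its lowest to its highest library. In Xist-low libraries it was at 36.1, 53.7 and 41.6 CPM in Space pups, at 1622, 38.4 and 46.1 CPM in Ground pups and at 204, 576 and 690.2 CPM in BDF1 mice. One Ground pup and all 3 of these BDF1 mice were thus above every Space pup. In the Xist-high libraries Saa1 was low in each group, between 12.4 and 70.3 CPM in Space pups, 8.55 and 63.8 CPM in Ground pups, and 14.3 and 39.6 CPM in BDF1 mice.

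The 4 highest libraries of Saa2 were those of Saa1, in the same order. Its Xist-low values were 7.72, 18.0 and 10.0 CPM in Space pups, 882, 13.1 and 8.37 CPM in Ground pups and 48.8, 162 and 263.8 CPM in BDF1 mice. Among the Xist-high libraries the highest was Space replicate 4 with 38.6 CPM, and the lowest was Ground replicate 4 with 5.19 CPM. The principal transcripts of Saa1 and Saa2 are 87.3% identical, and 9.11% of the 50-base stretches of Saa1 are also found in Saa2. How reads shared between them were counted is not given in the sources used here, so the division of counts between the pair is uncertain. Saa1 held between 57.5% and 84.6% of their joint counts.

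Saa3 ran at far lower counts, between 29 and 167 per library, and its highest values were 12.9 CPM in Space replicate 4, 9.84 CPM in Ground replicate 5, 8.62 CPM in BDF1 replicate 3 and 8.17 CPM in Ground replicate 1. The median was 2.74 CPM in Space pups, 6.15 CPM in Ground pups and 4.94 CPM in BDF1 mice, and the ranges overlapped.

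Orm1 was the steadiest of the secreted members. It lay between 606 and 1092 CPM in Space pups (median 704.8), between 575 and 979 CPM in Ground pups (median 716) and between 381 and 959 CPM in BDF1 mice (median 552). Orm2 lay between 5.29 and 45.4 CPM in Space pups (median 10.9), between 6.72 and 78.4 CPM in Ground pups (median 13.7) and between 10.7 and 84.2 CPM in BDF1 mice (median 13.7). Its 3 highest libraries were BDF1 replicate 3, Ground replicate 1 and BDF1 replicate 2, as for Saa1 in another order. Orm1 and Orm2 transcripts are 91.0% identical, with 20.4% of their 50-base stretches in common, so their division is uncertain too.

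Hp was at 2349, 2718 and 2090.3 CPM in the Xist-low Space pups, at 5869, 1981 and 2572 CPM in the Xist-low Ground pups and at 3214, 7372 and 7614 CPM in the Xist-low BDF1 mice. In Xist-high libraries the order of the groups turned, with 4039.7, 2899 and 2887 CPM in Space pups, 1639, 2801 and 4108 CPM in Ground pups and 1707, 1416 and 1828 CPM in BDF1 mice. All 3 of these BDF1 mice were below every Space pup of their class, where 32.1% of genes did not overlap. Of the 3 Ground pups 2 were above all of these BDF1 mice.

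Lcn2 separated the Space pups into 2 levels. It was at 1.94, 2.88 and 1.12 CPM in the Xist-low and at 33.6, 30.7 and 33.0 CPM in the Xist-high Space pups. Ground pups had 68.7, 2.10 and 2.00 CPM in the Xist-low and 8.02, 22.4 and 17.7 CPM in the Xist-high libraries. BDF1 mice had 6.40, 31.8 and 44.9 CPM in the Xist-low and 5.10, 7.65 and 7.67 CPM in the Xist-high libraries. Xist-low Space pups were below, and Xist-high Space pups above, every BDF1 mouse of their class, where 35.8% and 32.1% of genes did not overlap. Lcn2 is also made by neutrophils. The summed level of 12 neutrophil markers was 4.54, 4.00 and 2.56 CPM in the Xist-low and 8.25, 5.40 and 7.42 CPM in the Xist-high Space pups. In Ground pups it was 6.80, 2.99 and 3.90 CPM in the Xist-low and 4.78, 5.18 and 5.38 CPM in the Xist-high libraries, and in BDF1 mice 0.847, 3.94 and 2.92 CPM and 1.04, 2.28 and 2.51 CPM. The sum was thus higher in every Xist-high pup than in every Xist-high BDF1 mouse, where 17.3% of genes did not overlap. Among Ground pups it was highest in replicate 1, as Lcn2 was. Among BDF1 mice the sum was highest in replicate 2 and Lcn2 in replicate 3. Space replicate 1 had a higher sum than BDF1 replicate 3, 4.54 against 2.92 CPM, with Lcn2 at 1.94 against 44.9 CPM. Of these markers 9 were at 0 counts in at least 1 library and S100a8 did not exceed 1.65 CPM. The part of neutrophils in the Lcn2 values was not tested.

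Itih4 was high in 3 libraries, with 10563 CPM in Space replicate 4, 17007 CPM in Ground replicate 5 and 12658 CPM in Ground replicate 6. All other libraries lay between 1190.5 and 3013 CPM. These 3 libraries also had the largest shares of all genes raised, as given above, and the lowest TMM factors, 0.754, 0.762 and 0.705 against 0.901 to 1.17 in the others. The part of this scaling in the Itih4 values was not tested. Ceruloplasmin (Cp), another positive acute phase gene, was at 7135, 8657 and 8104 CPM in them and at 1823 CPM or lower elsewhere. Serpina6, which encodes corticosteroid-binding globulin and usually falls in the acute phase, was at 45519, 44766 and 30906 CPM there and at 998 CPM or lower elsewhere.

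Apcs was between 151 and 226 CPM in the Xist-low Space pups, 153 and 313 CPM in the Xist-low Ground pups and 126 and 354 CPM in the Xist-low BDF1 mice, and the ranges overlapped. Among Xist-high libraries it was at 540.4, 509 and 472 CPM in Space pups, at 351, 434 and 653 CPM in Ground pups and at 195, 237 and 235 CPM in BDF1 mice, and the 6 pups were all above the 3 BDF1 mice, where 17.3% of genes did not overlap between pups and BDF1 mice of this class. Stat3 stayed between 75.5 and 143 CPM in Space pups (median 102.7), 60.4 and 157 CPM in Ground pups (median 118) and 84.8 and 169 CPM in BDF1 mice (median 115).

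**Figure D2:**
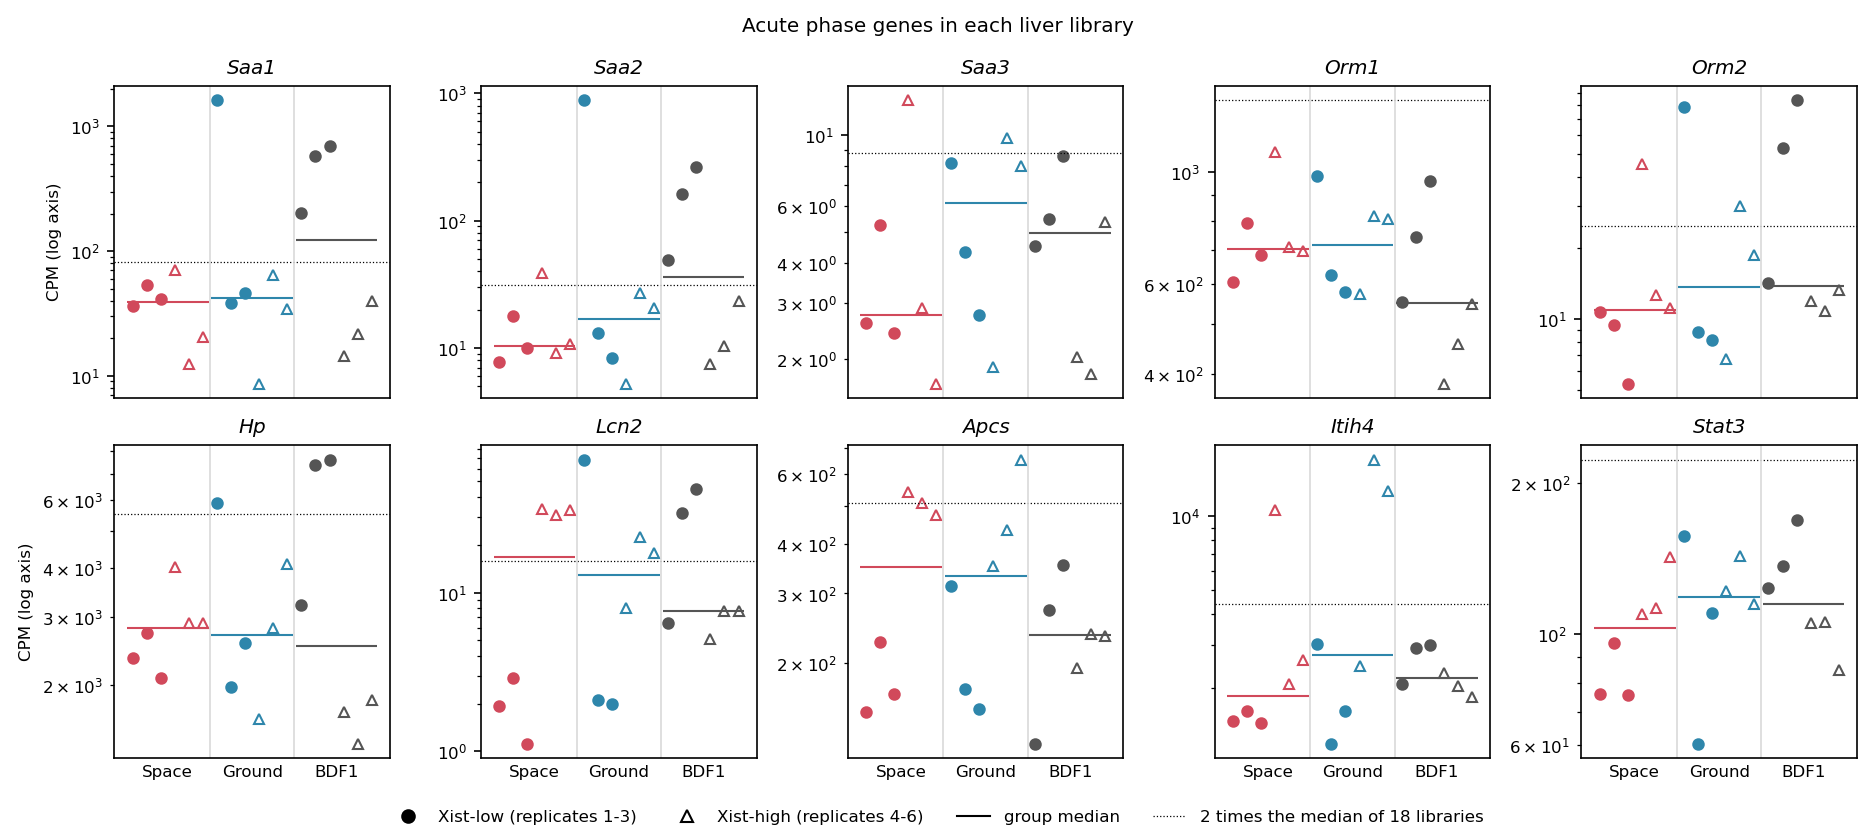
CPM of each member on a log axis, with 1 point per library from replicate 1 to 6 within each group (filled circles Xist-low, open triangles Xist-high), a line at each group median and a dotted line at 2 times the median of all 18 libraries. Orm1, Lcn2, Apcs and Stat3 are higher in every Xist-high pup than in every Xist-high BDF1 mouse, beside 17.3% of genes that did not overlap. Saa1 is high in Ground replicate 1 and the 3 Xist-low BDF1 mice.

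The study asked whether storage of the GS cells in space altered the offspring, which Space against Ground addresses. None of the 10 members passed an adjusted p of 0.05 in edgeR's quasi-likelihood test with Benjamini-Hochberg adjustment over all genes. Of all 12847 genes, 0% were called. At an unadjusted p under 0.05 there were 2 members and 1186 genes in all, and DESeq2 called 30 genes, none of them a member. Saa2 had the widest difference, -3.35 ± 1.25 (log2, SE, adjusted p = 0.43), followed by Saa1 with -2.95 ± 1.20 (adjusted p = 0.47). Both rested on Ground replicate 1, and without that library they came to 0.079 for Saa2 and 0.030 for Saa1. Itih4 differed by -0.94 ± 0.63 and the other 7 members by between -0.68 and 0.066. The median over the members was -0.29, beside -0.017 over all genes.

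Against the BDF1 mice no member passed the test in either group of pups, in edgeR or in DESeq2, and 1 member was under an unadjusted p of 0.05 in each comparison, beside 20.8% of all genes for Space and 20.7% for Ground pups. The Space comparison called 3.8% of all genes and the Ground comparison 3.81%. In Space pups Saa1 stood at -2.72 ± 1.19 (adjusted p = 0.20) and Saa2 at -2.46 ± 1.20 (adjusted p = 0.25), while Orm2 was at -0.99 ± 0.70. Apcs was at 0.54 ± 0.38 and Lcn2 at -0.0057 ± 0.92. In Ground pups Itih4 had the widest difference, 1.42 ± 0.64 (adjusted p = 0.22), with Saa2 at 0.89 ± 1.14, Saa1 at 0.23 ± 1.12 and Hp at -0.29 ± 0.41. The members' median was -0.13 in Space pups and 0.25 in Ground pups, beside 0.00046 and 0.021 over all genes. Both comparisons share the 6 BDF1 libraries. No group pair was free of overlap for any member over all 6 libraries a side, where 0.358% of genes were so for Space against Ground, 3.92% of genes for Space and 2.83% of genes for Ground against BDF1.

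For Space against BDF1 the estimates of all 10 members were below 0 among Xist-low and above 0 among Xist-high libraries, though few passed a test. With total counts Saa1 (-0.026) and Stat3 (-0.091) were below 0 among Xist-high libraries too. Among the 9 Xist-low libraries, 7 members were lower in every Space pup than in every BDF1 mouse (Saa1, Saa2, Orm2, Hp, Lcn2, Itih4 and Stat3), beside 35.8% of all genes that did not overlap in either direction. The log2 differences were -3.49 ± 1.18 for Saa1, -3.74 ± 1.44 for Saa2, -3.82 ± 1.31 for Lcn2, -2.58 ± 0.87 for Orm2, -1.35 ± 0.40 for Hp, -0.82 ± 0.28 for Itih4 and -0.80 ± 0.27 for Stat3. None passed the test, with adjusted p between 0.060 and 0.13 for these 7, in a fit where 8.56% of genes were called. With total counts Hp, Itih4 and Stat3 were called lower, beside 11.1% of genes. In this contrast Ground replicate 1 enters through the shared spread. Without Ground replicate 1, all 7 were called lower (adjusted p between 0.00088 and 0.039), with nearly the same differences, beside 8.61% of all genes. Without Ground replicate 2 there were 6 such calls, beside 16.4% of genes, and without Ground replicate 3 or BDF1 replicate 1 there was 1, beside 9.56% and 5.03%. For Space against Ground none of the members was called among these libraries, 4 were under an unadjusted p of 0.05 (Saa1, Saa2, Lcn2 and Orm2), as 13.6% of all genes were, and 0.11% of genes were called. Without Ground replicate 2 Saa1, Saa2 and Stat3 were called, beside 7.93% of genes. The Ground pups were then replicate 1, the highest library of Saa1 and Saa2, and replicate 3, and without Ground replicate 1 no member was called. For Ground against BDF1, no member passed among the Xist-low libraries, where 4.4% of genes did, none was under an unadjusted p of 0.05, beside 20.9% of genes, and none was free of overlap, beside 24.2% of genes. Without Ground replicate 1, Saa1 moved from 0.21 to -3.55 and Saa2 from 0.92 to -3.89, and 6 members were called lower, Saa1, Saa2, Orm2, Hp, Lcn2 and Itih4, beside 3.69% of genes.

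Among the 9 Xist-high libraries 5 members lay above the BDF1 mice in every Space pup (Orm1, Hp, Lcn2, Apcs and Stat3), where 32.1% of all genes did not overlap in either direction. Lcn2 was higher by 2.24 ± 0.32 (log2, SE, adjusted p = 0.010) and Apcs by 1.18 ± 0.21 (adjusted p = 0.019) in edgeR's fit of these libraries, in which 4.39% of genes were called. Mean Lcn2 in these Space pups was 32.4 ± 1.52 CPM, and in these BDF1 mice 6.81 ± 1.48 CPM (SD, n = 3 each). Lcn2 stayed called when any 1 of the 9 libraries was left out, and Apcs did in 5 of the 9, losing its call without Space replicate 5 or any of the BDF1 libraries. In Ground pups the same 2 members were called, Apcs with 1.11 ± 0.21 (adjusted p = 0.018) and Lcn2 with 1.23 ± 0.32 (adjusted p = 0.048), beside 6.89% of all genes, and 5 members lay above the BDF1 mice in every Ground pup (Orm1, Lcn2, Apcs, Itih4 and Stat3), as 30.3% of genes did not overlap. There, leaving out each library in turn kept the call of Apcs 6 times of 9, all but those without a BDF1 library, and that of Lcn2 2 times, without Space replicate 4 and without Ground replicate 4. Itih4 stood at 2.37 ± 0.74 (adjusted p = 0.082) in Ground pups. For Space against Ground among these libraries Lcn2 was higher in all 3 Space pups, by 1.02 ± 0.30 (adjusted p = 0.41), where 14% of genes did not overlap and 0% were called.

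These Xist-high groups also differed in scaling, with TMM factors of 0.705 to 0.960 in the pups and 1.07 to 1.17 in the BDF1 mice. With total counts the median of all genes was -0.39 for Space and -0.46 for Ground against BDF1. Members above the BDF1 mice in every pup were then Orm1, Hp, Lcn2 and Apcs for Space, beside 53.4% of genes without overlap, and Apcs alone for Ground, beside 49.1%. Lcn2 (1.85, adjusted p = 0.0081) and Apcs (0.79, adjusted p = 0.025) were called for Space, beside 16.4% of genes. For Ground Apcs (0.59, adjusted p = 0.032) and Itih4 (1.80, adjusted p = 0.048) were called, beside 31.2%, and Lcn2 was at 0.70 (adjusted p = 0.069). The summed level of the 9 hepatocyte markers was between 223333 and 282852 CPM in the Xist-high Space pups, 218726 and 374119 CPM in the Xist-high Ground pups and 78735 and 99813 CPM in the Xist-high BDF1 mice. Alb made up most of that gap, and the other 8 markers summed to between 27164 and 31955 CPM, 23174 and 32579 CPM, and 21414 and 24691 CPM in these groups, with Ground pups overlapping BDF1 mice. The part of scaling in these differences was not tested.

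**Figure D3:**
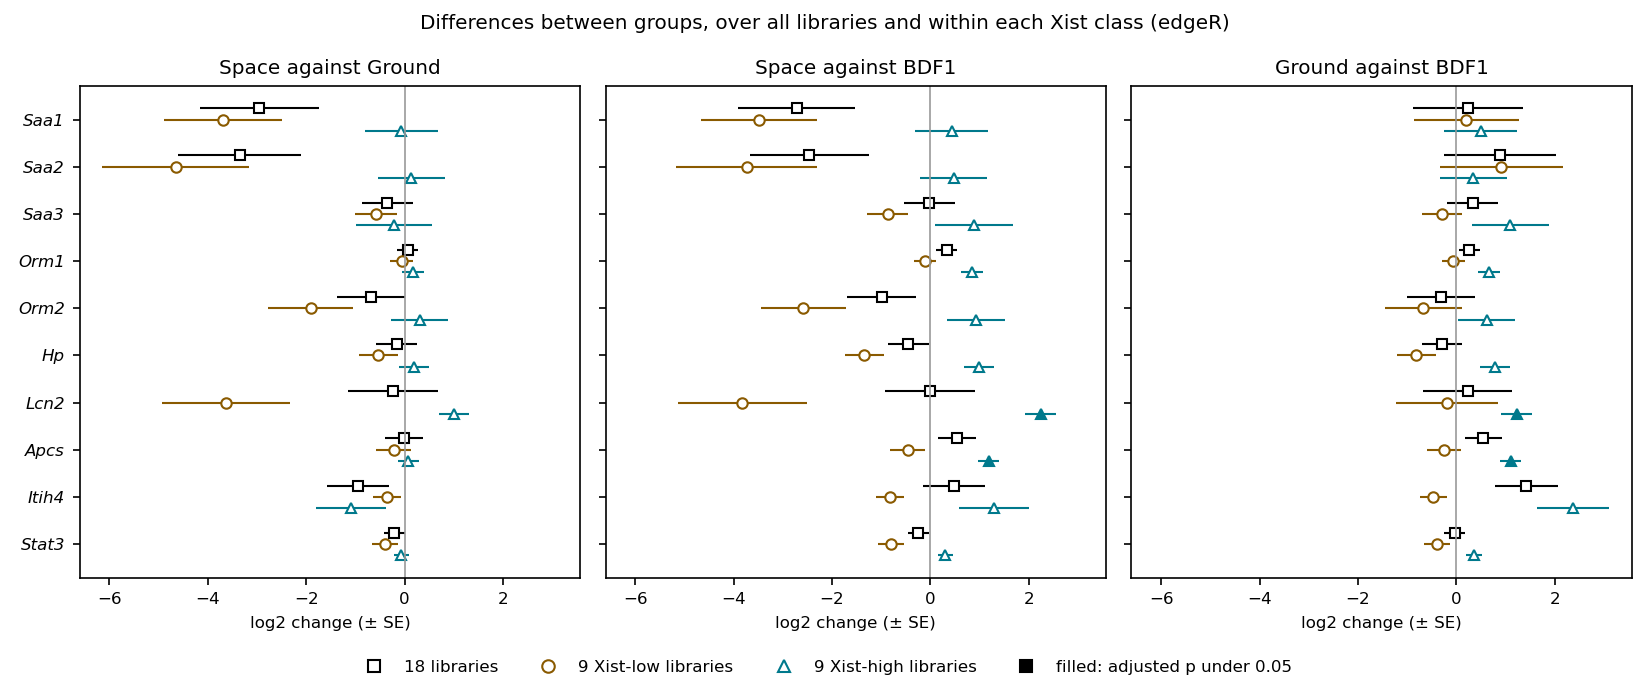
Log2 difference of each member with its standard error in the 3 comparisons, from edgeR fits over all 18 libraries (squares), the 9 Xist-low libraries (circles) and the 9 Xist-high libraries (triangles), filled where the adjusted p was under 0.05. For Space against BDF1, Lcn2 lies at -3.82 among Xist-low and at 2.24 among Xist-high libraries.

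The difference between the classes was tested as an interaction over all 18 libraries. For Space against BDF1, Lcn2 had an interaction of 6.07 ± 1.46 (log2, SE, adjusted p = 0.032) and Hp one of 2.34 ± 0.56 (adjusted p = 0.030) in edgeR's quasi-likelihood test, 2 of 10 members beside 3.45% of all genes. All 10 members had a positive estimate, with a median of 2.23 against 0.0017 over all genes. Apcs had 1.66 ± 0.46 (adjusted p = 0.057) and Stat3 1.10 ± 0.34 (adjusted p = 0.084). Leaving out 1 library at a time removed both calls in 8 of 18 fits, those without Space replicates 1, 2 or 3 or BDF1 replicates 2 to 6, and without Space replicate 4 the call of Hp was lost. Without Ground replicate 1 7 members were called, beside 3.28% of genes, and DESeq2 called 4 over all libraries (Hp, Lcn2, Apcs and Stat3), beside 6.66%. For Ground against BDF1 no member was called, beside 2.91% of genes, 4 were under an unadjusted p of 0.05, beside 17.5%, and Itih4 came nearest with 2.83 ± 0.84 (adjusted p = 0.081). DESeq2 called Hp, Apcs and Itih4 there, beside 6.04%. For Space against Ground no member and 0% of genes were called. At an unadjusted p under 0.05 there were 3 members and 1003 genes, and DESeq2 called 32 genes and no member.

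Averaged over the groups, Saa1 was lower in Xist-high than in Xist-low libraries with a log2 difference of -3.03 ± 0.87 (adjusted p = 0.011, edgeR), while Apcs was higher by 0.84 ± 0.25 (adjusted p = 0.016) and Itih4 higher by 1.32 ± 0.47 (adjusted p = 0.035). These were 3 of 10 members, beside 35.9% of all genes. Saa2 was at -2.56 ± 1.01 (adjusted p = 0.056), and it was called by DESeq2, without the filter on low counts, with total counts and in 6 of 18 fits that left out 1 library. Apcs was called in all 18 fits that left out 1 library and Saa1 in 17, the exception being the fit without Ground replicate 1 (-1.63, adjusted p = 0.078). The call of Itih4 held in 9 of them and was lost without Space replicate 4 (0.91, adjusted p = 0.11), Ground replicate 5 or Ground replicate 6, its 3 highest libraries, and without Space replicates 1 to 3 or Ground replicates 1 to 3. No member separated the classes without overlap, where 5.62% of genes did.

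Across the 18 libraries the members formed looser and tighter pairs. Pearson's r of log2 CPM, given as a description over libraries that share their scaling and their groups, was 0.96 for Saa1 with Saa2, 0.89 for Saa2 with Orm2, 0.85 for Orm2 with Hp and 0.82 for Saa1 with Hp. Apcs had an r of 0.77 with Lcn2 and 0.73 with Itih4. Saa1 had little relation to Apcs or Itih4, with -0.059 for Apcs and 0.12 for Itih4. After the mean of each Xist class was subtracted, Saa1 had an r of 0.53 with Apcs and 0.61 with Itih4, and the median over the 45 pairs went from 0.61 to 0.70. Lcn2 then had an r of 0.91 with Hp, 0.87 with Saa1, 0.76 with Apcs and 0.51 with Itih4.

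**Figure D4:**
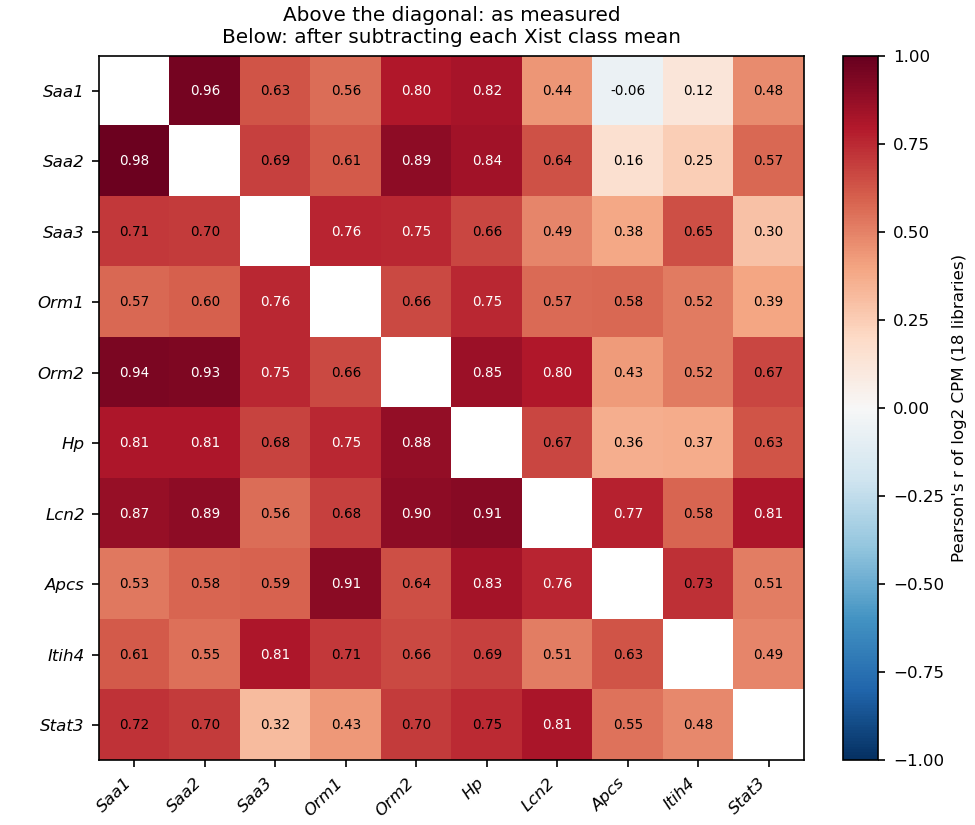
Pearson's r between members over 18 libraries, above the diagonal on log2 CPM as measured and below it after the mean of each Xist class was subtracted. Saa1 and Apcs go from -0.059 to 0.53, and Saa1 and Saa2 are at 0.96 and 0.98.

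The genes most like the members were found by the r of their log2 CPM with the members' mean z-score over the 18 libraries, leaving out genes whose mean was under 1 CPM. Hpx, which encodes the haem carrier hemopexin, came first with 0.96, before Itih3 with 0.93 and Serping1, the C1 inhibitor gene, with 0.89. The fibrinogen genes Fgb, Fgg and Fga had 0.89, 0.89 and 0.88, Lbp, which binds bacterial lipopolysaccharide, 0.87, and Serpina3n 0.84. Serpina10 with 0.87 and Gltpd2 with 0.86 completed the 10. Fga was at 9553 CPM in Ground replicate 1, 8627 CPM in BDF1 replicate 2 and 10510 CPM in BDF1 replicate 3, beside a median of 5821 CPM. It was at 8284 CPM in Ground replicate 5 and 7793 CPM in Ground replicate 6. Since these genes were picked by their r with the members, high values where members are raised follow from that choice.

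In a wider list of 31 other positive acute phase genes, 30 were tested. Cd14, the lipopolysaccharide co-receptor, was the only one called for either group of pups, 1 of 30 beside 3.8% of all genes for Space and 3.81% for Ground. It was higher by 1.60 ± 0.36 in Space pups (adjusted p = 0.020, edgeR) and by 1.38 ± 0.36 in Ground pups (adjusted p = 0.043) against BDF1 mice. The call in Space pups held in all 18 fits that left out 1 library, and that in Ground pups in 6 of 18 (adjusted p up to 0.081). It was at a low level, 2.43 ± 1.25 CPM (SD, n = 6) in Space pups, 2.07 ± 0.70 in Ground pups and 0.792 ± 0.259 in BDF1 mice. Kupffer cells and monocytes also express it, and the summed level of 11 of their markers lay between 95.9 and 234 CPM in Space pups, 96.8 and 254 CPM in Ground pups and 91.0 and 191 CPM in BDF1 mice. Their part was not tested. The list's median difference was -0.0035 in Space pups and 0.22 in Ground pups. For the interaction of Space against BDF1 with the Xist class 6 of the 30 were called, all higher, the metallothioneins Mt2 (4.70) and Mt1 (4.28), Fgl1 (3.70) and the IL-1 antagonist Il1rn (3.03) with the widest estimates, beside 3.45% of all genes. Mt1 kept its call in all 18 fits that left out 1 library, Mt2 in 14 and Fgl1 and Il1rn in 9 each. For Ground against BDF1 Lbp alone was called, with an interaction of 1.84 (10 of 18 fits), beside 2.91% of all genes. The list's median interaction was 0.96, beside 0.0017 over all genes. Between the Xist classes 10 of the 30 were higher in Xist-high libraries and 4 lower, where 35.9% of all genes were called in either direction, with Il1rn at 3.42 ± 0.39 and the complement gene C9 at -2.86 ± 0.37 the widest. Mt1 was between 1076 and 1639 CPM in the Xist-high pups and between 105 and 214 CPM in the Xist-high BDF1 mice.

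Of 15 tested genes that usually fall in the acute phase, Apoa1, of high-density lipoprotein, was higher in Space pups by 1.01 ± 0.25 (adjusted p = 0.034, edgeR) and in Ground pups by 0.94 ± 0.25 (adjusted p = 0.046) than in BDF1 mice. Cyp2c29, a drug-metabolising cytochrome, was lower in Ground pups (-0.89 ± 0.22, adjusted p = 0.036). When 1 library at a time was left out, Apoa1 kept its call in 11 of 18 fits for Space (adjusted p up to 0.087) and in 5 of 18 for Ground pups (up to 0.11), and Cyp2c29 in 9 of 18 (up to 0.084). The other 14 and 13 did not pass, so 1 and 2 of 15 were called, beside 3.8% and 3.81% of all genes. For Ground against BDF1 the difference of Apoa1 also varied with the Xist class, with an interaction of 1.52 ± 0.33 (adjusted p = 0.021, called in 16 of 18 fits that left out 1 library). Its mean was 8707 ± 850.3 CPM in Ground pups and 7718 ± 1246 CPM in BDF1 mice among the Xist-low libraries, and 15109.9 ± 5371 and 4676 ± 588 CPM among the Xist-high libraries (SD, n = 3 each). Alb had an interaction of 1.76 and Apoa4 one of 1.69 there, 3 of 15 genes beside 2.91% of all. For Space against BDF1 Apoa4 alone was called, with 2.05, beside 3.45% of all. Of these genes 11 were higher in Xist-high libraries, Serpina6 by 5.62 ± 1.10 and Alb, the albumin gene, by 1.58 ± 0.25 among them, and none was lower, beside the 35.9% of all genes called between the classes. Serpina6 lay between 30906 and 45519 CPM in Space replicate 4 and Ground replicates 5 and 6. In the other Xist-high libraries it lay between 738 and 998 CPM, and in the Xist-low libraries between 118 and 231 CPM.

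The signalling list held 35 ligands, receptors and transcription factors, of which 29 were tested. At an unadjusted p under 0.05 there were 2 for Space against Ground, and against BDF1 mice 7 in Space and 8 in Ground pups, beside 9.23%, 20.8% and 20.7% of all genes. The only one called in these was Il6ra, the IL-6 receptor, 1 of 29 for Ground against BDF1, beside 3.81% of all genes. It was higher in Ground pups than in BDF1 mice by 0.93 ± 0.21 (adjusted p = 0.024, edgeR), with 80.8 ± 11.3 CPM (SD, n = 6) against 42.4 ± 15.9. This call held in 16 of 18 fits that left out 1 library. In Space pups it was at 64.7 ± 11.4 CPM. For Ground against BDF1 it had an interaction with the Xist class of 1.16 ± 0.25 (adjusted p = 0.021, called in 15 of 18 fits that left out 1 library), with means of 76.2 against 56.5 CPM among Xist-low and 85.3 against 28.3 CPM among Xist-high libraries. The ligand genes Il6, Tnf and Il1b did not exceed 0.0941, 0.483 and 0.884 CPM in any library. Socs3, the feedback inhibitor that STAT3 induces, was highest in BDF1 replicate 3 with 13.7 CPM, Space replicate 4 with 12.7 CPM and Ground replicate 1 with 11.1 CPM, at 6.90 CPM in BDF1 replicate 2, below Space replicate 5 and Ground replicates 3, 5 and 6, and lowest in Space replicate 1 with 2.53 CPM. Between the Xist classes 13 of the 29 were called, beside 35.9% of all genes. Among the C/EBP genes, Cebpd (-1.17 ± 0.18) and Cebpb (-0.69 ± 0.24) were lower in Xist-high libraries averaged over the groups, whereas Cebpa was higher by 0.70 ± 0.09. For Cebpb the interaction of Space against BDF1 with the Xist class was -1.55 ± 0.41 (adjusted p = 0.047), opposite in sign to those of Lcn2 and Hp, while Il6ra (0.95), Pias3 (0.92) and Tnfrsf1a (0.59), also called, had the same sign as they did. In the Xist-low libraries Cebpb was at 174, 156 and 157 CPM in Space pups, at 221, 109 and 147 CPM in Ground pups and at 55.4, 53.0 and 73.9 CPM in BDF1 mice, and Ground replicate 1 was the highest of all 18 libraries. In the Xist-high libraries it lay between 43.2 and 117 CPM in pups and was at 66.1, 77.7 and 83.2 CPM in BDF1 mice. Among BDF1 mice alone it was thus not lower in the Xist-high libraries. The interaction call of Cebpb held in 5 of 18 fits that left out 1 library, that of Il6ra in 5, of Pias3 in 9 and of Tnfrsf1a in 12. These were 4 of the 29 tested genes, beside 3.45% of all genes.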

How the data were processed

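Liver RNA of 18 mice was measured as stranded mRNA libraries. The deposited table holds unnormalized counts of reads for each gene, which the authors made, per the submitters' processing notes, with bcl2fastq 2.20, cutadapt 4.6, HISAT2 2.2.1, HTSeq 2.0.2 and the mm10 build, with no scaling. The settings for strand and for reads shared between genes are not given in the sources used here. Groups and replicate numbers are those of the labels, and no column was left unmatched.

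Genes were filtered with filterByExpr, scaled with TMM and fitted in edgeR 4.0.16 (R 4.3.3) by quasi-likelihood over all libraries with group alone, with group and Xist class, and with their interaction. An adjusted p under 0.05 (Benjamini-Hochberg, all genes) was a call. The SE of a log2 change is its size divided by the root of its F statistic. A prior count of 2 was added for log2 CPM. A library was Xist-high where its Xist counts exceeded the summed counts of Ddx3y, Eif2s3y, Kdm5d and Uty. The fits were tested on simulated data. Alternatives were DESeq2 1.42.0, its size factors, total counts, no filter, class or replicate number in the model, single classes, the 2 groups alone and each library left out. Leaving out libraries and total counts within a class were added after seeing the data.

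The members and gene lists were chosen with earlier results of these data known. Named were the members and, from each list, up to 4 called genes in each direction with a mean of at least 1 CPM, and the 10 genes most like the members. Cp, Socs3, the ligand genes and library values of other genes were named after their values were seen. Positions are from GENCODE M21 and promoters from RefSeq.

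Libraries with the same number deviated together, with correlations of deviations from the group means between 0.231 and 0.654 in 18 pairs (median 0.49). Libraries of unlike number but equal Xist class gave a median of 0.53, and once class means were removed the median for like numbers was -0.046, so the numbers carry the class. No library was a duplicate: the lowest chi-square per gene within a group was 10.5.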

Additional observations from a re-analysis of the deposited data

Results flagged for a closer look

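Among 30 sets of 6 libraries, 1 per member and group, 8 had a library far from the other 5. Chance gives about 1 in 20 in independent sets, and these sets share libraries and members that vary together. The gap to the nearest library as a share of the whole range was 0.966 for Saa1, 0.975 for Saa2, 0.676 for Orm2 and 0.695 for Lcn2 in Ground replicate 1. In Space replicate 4 it was 0.668 for Saa2, 0.680 for Saa3, 0.816 for Orm2 and 0.873 for Itih4. All 8 were the highest library of their group.

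For 2 of the 10 members an interaction of Space against BDF1 with the Xist class was called, beside 3.45% of all genes. It was 6.07 (log2, adjusted p = 0.032, edgeR) for Lcn2 and 2.34 (adjusted p = 0.030) for Hp. When 1 library was left out, Lcn2 kept its call in 10 of 18 fits and Hp in 9.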

How the results depend on the processing

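In the pairwise comparisons over all libraries 0 members were called by DESeq2, with its size factors, with total counts or without a filter. Nor was any called with the class or the replicate block in the model, with the 2 groups alone or with any library left out. The Xist-high libraries alone gave 2 for Space and 2 for Ground against BDF1, beside 4.39% and 6.89% of genes. Between the classes DESeq2 gave 4 members, beside 37.8% of genes, and no filter 4, beside 20.8%, both adding Saa2. Total counts gave 6, beside 49.1% of genes, and leaving out a library 1 to 3, beside 31.9% to 37.2%. For the interaction with Space against BDF1, DESeq2 gave 4 (6.66% of genes), no filter 3 (2.28%), total counts 2 (4.37%) and leaving out a library 0 to 7. The 7 were beside 3.28% of genes. With Ground against BDF1, DESeq2 gave 3 (6.04% of genes), no filter 1 (2.08%), total counts 1 (12%) and leaving out a library 0 to 2. The 2 were beside 1.95% of genes without Ground replicate 1 and 5.95% without Ground replicate 4. Total counts within the classes, chosen after seeing the data, gave 3 for Space against BDF1 among Xist-low libraries, beside 11.1% of genes. Leaving out a library within the Xist-low class gave 0 to 3 calls for Space against Ground, 0 to 7 for Space against BDF1 and 0 to 6 for Ground against BDF1. The largest of these counts stood beside 7.93%, 8.61% and 3.69% of genes. Within the Xist-high class it gave 1 to 4 for Space and 0 to 4 for Ground against BDF1. The 4 stood beside 5.33% of genes for Space, and beside 8.95% and 10.4% for Ground.

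Several differences, none of them called over all libraries, turned direction (log2, cause not tested). Of the turned values given here only Lcn2 in Space against BDF1 among Xist-high libraries was called (adjusted p = 0.010, edgeR). Among Xist-high libraries, Space against Ground was 0.13 for Saa2, 0.31 for Orm2, 0.20 for Hp, 1.02 for Lcn2 and 0.076 for Apcs. Space against BDF1 was 0.43 for Saa1, 0.48 for Saa2, 0.89 for Saa3, 0.93 for Orm2, 0.98 for Hp, 2.24 for Lcn2 and 0.30 for Stat3, and Ground against BDF1 was 0.62 for Orm2, 0.79 for Hp and 0.36 for Stat3. Among Xist-low libraries, Space against Ground was -0.057 for Orm1, Space against BDF1 was -0.11 for Orm1, -0.47 for Apcs and -0.82 for Itih4, and Ground against BDF1 was -0.29 for Saa3, -0.057 for Orm1, -0.19 for Lcn2, -0.25 for Apcs and -0.46 for Itih4. Total counts, which moved the median of all genes to -0.25 for Space and -0.24 for Ground against BDF1, gave -0.010 for Orm1 and -0.030 for Lcn2 in Ground against BDF1 and 0.036 for Apcs in Space against Ground. Lcn2 in Space against BDF1 was 0.000558 in DESeq2 and 0.000245 with the 2 groups alone.

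With the replicate block, Ground against BDF1 was -0.57 for Saa1, -0.62 for Saa2 and -0.48 for Lcn2, Space against Ground was 0.064 for Lcn2 and Space against BDF1 was -0.0066 for Itih4. The block changed no call of a member, and since the numbers follow the Xist class it carries that class too.

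Leaving out 1 library turned these differences over their range. Space against Ground ran from -3.21 to 0.030 for Saa1, -3.84 to 0.079 for Saa2, -0.063 to 0.17 for Orm1, -1.35 to 0.12 for Orm2, -0.29 to 0.11 for Hp, -0.53 to 0.73 for Lcn2 and -0.18 to 0.28 for Apcs. Space against BDF1 ran from -0.65 to 0.26 for Saa3, -0.31 to 0.55 for Lcn2 and -0.36 to 0.63 for Itih4. Ground against BDF1 ran from -2.75 to 0.82 for Saa1, -2.54 to 1.65 for Saa2, -1.12 to 0.29 for Orm2, -0.56 to 0.024 for Hp, -0.74 to 0.79 for Lcn2 and -0.13 to 0.096 for Stat3. Within the Xist-low class it ran from -3.55 to 0.76 for Saa1, -3.89 to 1.51 for Saa2 and -3.76 to 0.35 for Lcn2.

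Over 1.5 times the median in place of 2 times, at least 5 members were raised in 6 libraries. Those added were Ground replicates 5 and 6, with 7 and 5 members, where 5.52% and 4.27% of all genes were raised over 2 times. Over 2 times the median of total-count CPM at least 5 members were raised in 3 libraries, none of them a Space library. No share of all genes is given for 1.5 times or for total counts, so these counts have no background beside them. Depth limits little here, since the lowest value of a member rested on 21 counts.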
